A study of Mus musculus with 24 samples.

Results

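The CSF1 system, a growth factor system of macrophages, comprises 3 genes: Csf1r encodes the receptor of colony-stimulating factor 1, and Csf1 and Il34 encode its ligands. They were taken by name, and all 3 hold values among the 750 genes that could be analysed. All 3 also lie among the 568 genes that were above the detection limit in at least 8 of the 16 well-counted libraries defined below. The genes were measured in 24 samples of mouse mammary tumours by NanoString barcode counting, in which labelled probes bound to each RNA are counted without amplification.

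The tumours were mammary tumour-derived transplants (mTDT) grown in BALB/c mice, and the labels name no other host strain, allele or treatment. The immune infiltrate is labelled inflamed in 13 samples, excluded in 4 and desert in 7. In common use these words describe lymphocytes among the tumour cells, lymphocytes held at the tumour margin and few lymphocytes. The labels do not say how a class was assigned or how old the hosts were. The leading letter of each sample code (A, C, F, G, H or L) is tied by the labels to tumour origin. After the letter, 5 codes carry 0 and 19 carry F2, which the labels do not explain. Some samples share a code number and may come from the same tumour, so the spread behind each p-value is that between the samples given, part of which may be technical.

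Macrophages and their blood precursors, the monocytes, carry the CSF1 receptor, a tyrosine kinase that signals for survival, division and differentiation when a ligand binds. CSF1 is made by many cells, among them fibroblasts, endothelial cells and tumour cells, while IL-34 is best known from keratinocytes in skin and neurons in brain. In mouse mammary tumours CSF1 is known for drawing in and maintaining tumour-associated macrophages. RNA of whole tissue was measured here, so fewer cells of a type and less RNA per cell cannot be told apart.

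Levels are deposited log2 values, and a difference of 1 is a doubling. Total counts ran between 5262 and 1110314 per library. A library of 100000 counts or more is called deep, and the 16 deep ones (8 inflamed, 3 excluded, 5 desert) carry the results. In the 8 shallow libraries the detection limit stood at 5.14 to 8.40, against 1.67 to 4.32 in the deep ones. Inflamed replicates 3 and 4, both of letter A and of the same code number, stood apart from the other deep libraries. Their median log2 values over all genes were 4.56 and 4.63, against 5.06 to 5.70 in the other deep libraries. The part of this library-wide shift in their member values was not tested. Results for the 3 members that rest on this pair are given with and without it. Class and code differences of other genes and of gene lists are given only with it. Macrophage markers were measured in every deep library: Cd68, Adgre1 and Itgam exceeded the limit in 16 of 16. The endothelial marker Pecam1 and the neutrophil gene S100a8 did so in 16 as well, the dendritic cell marker Itgax in 13, the mast cell protease Cpa3 in 10 and the T cell receptor chain Cd3e in 6. The epithelial marker Epcam exceeded it in 7, with a highest value of 10.96.

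Csf1r was above the detection limit in all 16 deep libraries, and its level varied as widely within a class as between classes. It ran between 6.71 and 10.88, with a median of 8.75, in the 8 deep inflamed libraries. Excluded replicates 1, 2 and 3 held 7.98, 9.65 and 9.73. Desert replicates 1, 2, 5, 6 and 7 held 9.17, 8.99, 7.07, 7.38 and 9.23. The highest value was in inflamed replicate 1 and the lowest in inflamed replicate 3, so the inflamed class spanned the other classes whole. The class means were 8.78 ± 1.72 in inflamed (SD, n = 8), 9.12 ± 0.99 in excluded (n = 3) and 8.37 ± 1.05 in desert libraries (n = 5).

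Csf1, the ligand that carries the system's name, showed the same overlap of classes. It ran between 6.56 and 9.74, with a median of 8.30, in inflamed libraries. Excluded replicates 1, 2 and 3 held 6.56, 8.80 and 8.90. Desert replicates 1, 2, 5, 6 and 7 held 7.59, 7.61, 6.69, 6.72 and 8.23. Values near 6.6 occurred in all 3 classes, while no desert library reached the 8.80 of excluded replicate 2. The class means were 8.16 ± 1.24 in inflamed, 8.09 ± 1.32 in excluded and 7.37 ± 0.66 in desert libraries (SD, n = 8, 3 and 5).

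Il34, the second ligand, had the widest range of the 3 genes through inflamed replicates 3 and 4. It ran between 2.00 and 7.84, with a median of 7.32, in inflamed libraries. Excluded replicates 1, 2 and 3 held 5.89, 6.71 and 6.55. Desert replicates 1, 2, 5, 6 and 7 held 8.43, 6.58, 7.46, 7.75 and 6.42. Outside the pair, the lowest inflamed value was 6.51, inside the range of the desert libraries. The class means were 6.05 ± 2.43 in inflamed, 6.39 ± 0.43 in excluded and 7.33 ± 0.84 in desert libraries (SD, n = 8, 3 and 5).

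The pair itself held Il34 at 2.00 and 2.35, below its detection limits of 3.69 and 3.37. These values stand for 19 counts in replicate 3 (exact Poisson 95% interval 11.4 to 29.7) and 14 counts in replicate 4 (7.65 to 23.5), beside a mean background of 17.4 and 9.76 counts. The intervals cover counting error only. The other 14 deep libraries all held Il34 above their limits. Excluded replicate 1, at 5.89 the lowest of those 14 and also of letter A, was 5.15-fold above the mean limit of the pair. Its Il34 was thus at least that far above the Il34 of the pair.

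**Figure D1:**
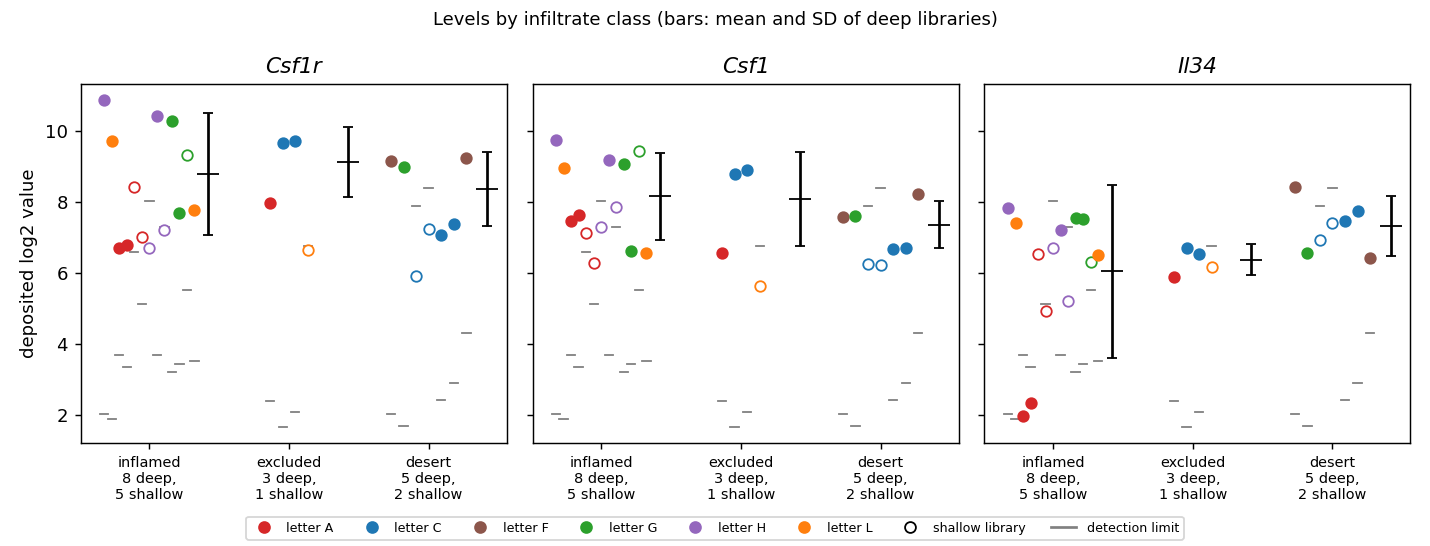
Deposited log2 values (y axis) of Csf1r, Csf1 and Il34 in inflamed, excluded and desert tumours (x axis), 1 point per library, coloured by origin letter. Filled points are the 16 deep libraries, open points the 8 shallow ones, grey dashes the detection limit of each library, and bars the mean ± SD of the deep libraries. The classes overlap for each gene, and the 2 lowest filled points of Il34, at 2.00 and 2.35, are inflamed replicates 3 and 4.

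No difference between classes passed the test for any of the 3 genes. In limma fits over all 750 genes, with Benjamini-Hochberg adjustment and a threshold of 0.05, 0 of 3 members passed in any class comparison, 0 had an unadjusted p under 0.05, and 0 passed with voom on the recovered counts. Of all genes, 0.267% passed in inflamed against desert, 0% in inflamed against excluded and 0% in excluded against desert libraries. At an unadjusted p under 0.05 those shares were 10.7%, 8.53% and 6.13%. The libraries of the 2 classes overlapped for each member in each comparison, whereas they did not overlap for 0.267%, 3.60% and 7.87% of all genes.

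For the receptor, the fitted log2 difference of inflamed minus desert was 0.41 (SE 0.75, 95% interval -1.18 to 2.01, limma adjusted p = 0.899). Without inflamed replicates 3 and 4 it was 1.09 (limma adjusted p = 0.497). Inflamed minus excluded gave -0.34 (interval -2.23 to 1.55, limma adjusted p = 0.940), and it turned to 0.34 without the pair. Excluded minus desert gave 0.76 (interval -1.28 to 2.79, limma adjusted p = 0.918), and ran from 0.43 without desert replicate 5 to 1.33 without excluded replicate 1. With the origin letter as a fixed term, excluded minus desert was 2.16 and inflamed minus excluded -1.70, and neither passed. Deep excluded and desert libraries met within a letter only in C, and inflamed and excluded ones only in A. In A class and code cannot be told apart, so these values rest on few libraries. The intervals hold changes of more than 2-fold in both directions, so a class difference of that size was not detectable with these libraries.

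For Csf1, inflamed minus desert was 0.79 (SE 0.59, interval -0.46 to 2.05, limma adjusted p = 0.621), and 0.997 without the pair. Excluded minus desert was 0.72 (interval -0.89 to 2.33, limma adjusted p = 0.918), but 1.48 without excluded replicate 1 and 0.31 without excluded replicate 3. Inflamed minus excluded was 0.07 (interval -1.42 to 1.56, limma adjusted p = 0.989), 0.28 without the pair, and its sign turned in several alternatives.

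For Il34, inflamed minus desert was -1.28 (SE 0.95, interval -3.28 to 0.73, limma adjusted p = 0.619). Without inflamed replicates 3 and 4 the difference was 0.017, so those libraries decide its size. Inflamed minus excluded was -0.33 (interval -2.72 to 2.05, limma adjusted p = 0.97), against 0.96 without the pair. Excluded minus desert was -0.94 (interval -3.51 to 1.63, limma adjusted p = 0.918).

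Ordered by origin letter, the receptor and both ligands were highest in H and lowest in A. The mean of Csf1r was 10.65 in H, 9.20 in F, 8.99 in G, 8.75 in L, 8.46 in C and 7.16 in A. In H the libraries held 10.88 and 10.42, and in F 9.17 and 9.23. The 3 libraries of G held 8.99, 10.28 and 7.69, and those of L 9.73 and 7.77. Between neighbours in this order only H and F did not overlap, which for 2 libraries each is a description and no test.

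Csf1 followed nearly the same order, with means of 9.46 in H, 7.91 in F, 7.78 in G, 7.78 in C, 7.77 in L and 7.22 in A. H again held the highest libraries, at 9.74 and 9.18, and did not overlap with F, at 7.59 and 8.23. G spanned 6.64 to 9.09, L 6.56 to 8.98 and C 6.69 to 8.90, so the 3 middle letters could not be ranked.

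Il34 was nearly level over 5 letters and low in the sixth. Its mean was 7.52 in H, 7.42 in F, 7.22 in G, 7.12 in C, 6.96 in L and 3.41 in A, where excluded replicate 1 held 5.89 and the inflamed pair 2.00 and 2.35. Only L and A, among neighbours in this order, did not overlap.

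**Figure D2:**
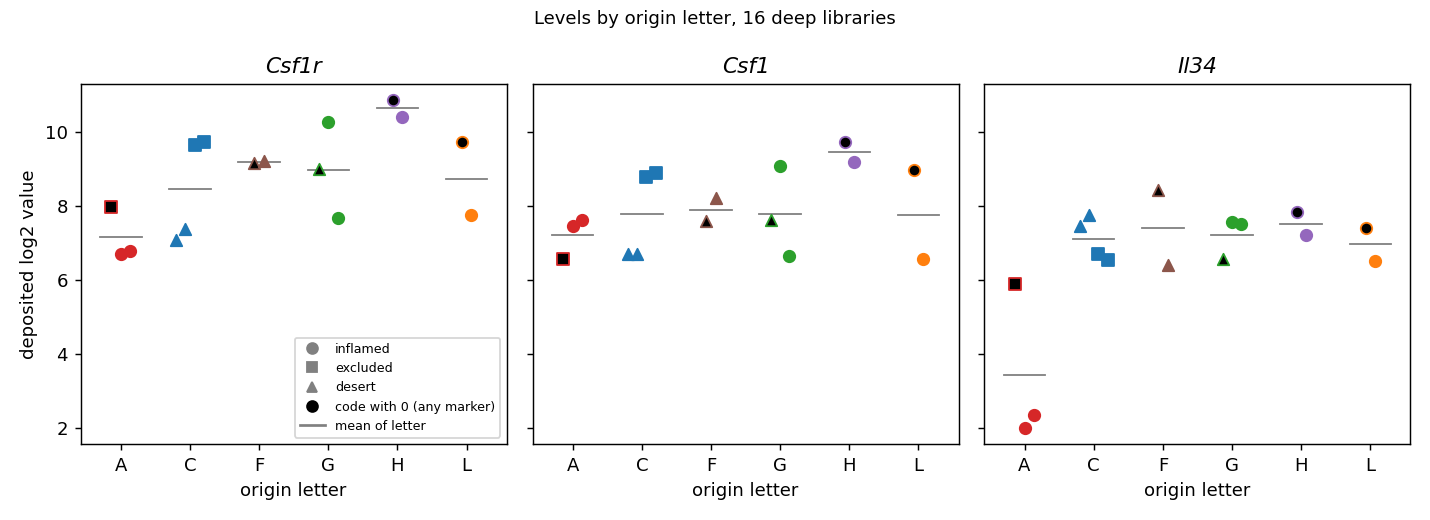
Deposited log2 values (y axis) of Csf1r, Csf1 and Il34 in the 16 deep libraries by origin letter (x axis). Circles are inflamed, squares excluded and triangles desert libraries, black centres mark codes with 0, and grey lines are the mean of a letter. Letter H lies highest for Csf1r and Csf1, with means of 10.65 and 9.46, and letter A lowest for Il34, with a mean of 3.41.

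The moderated F test of limma over letters called 0 of the 3 members, with adjusted p of 0.271 for Csf1r, 0.628 for Csf1 and 0.121 for Il34. It called 0.400% of the 750 genes. At an unadjusted p under 0.05 it passed 1 member, Il34 (p = 0.0029), and 18.4% of all genes. The call for Il34 turned on letter A: the adjusted p was 0.00195 without excluded replicate 1, 0.00446 in F2 codes alone, 0.706 without inflamed replicate 3 and 0.676 without inflamed replicate 4. Without excluded replicate 1, 149 of all 750 genes passed, and in F2 codes alone 147, so the passing of Il34 in those fits says little about Il34 itself. Letter A consisted in both of those fits of inflamed replicates 3 and 4 alone, which share a code number but entered as separate libraries. Their spread may be partly technical, and both held Il34 below the detection limit. Over all deep libraries of letter A the summed level of 5 measured epithelial genes was 10.77 to 11.34 on the log2 scale. It was 5.61 to 7.16 in the other letters, and the F test called 3 of these 5 genes. Epithelial genes are thus measured to move with letter A. Excluded replicate 1, with Il34 at 5.89 and above its limit, held the highest of these sums, 11.34, against 10.77 and 10.90 in the pair. The part of epithelial genes in the Il34 values was not tested.

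Class and letter could be set apart within letters C, A and G. In letter C, Csf1r held 9.65 and 9.73 in the excluded libraries, against 7.07 and 7.38 in the desert ones. Csf1 held 8.80 and 8.90 in excluded libraries of C, against 6.69 and 6.72 in desert ones. Il34 ran the other way, with 6.71 and 6.55 in excluded libraries of C against 7.46 and 7.75 in desert ones. The excluded minus desert differences in letter C were thus 2.47 for the receptor, 2.15 for Csf1 and -0.98 for Il34, each without overlap. Non-overlap was the rule in this contrast, in 72.5% of all genes, and the excluded libraries of C share a code number, so these are values of 3 tumour codes and were not tested.

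In letter A, the inflamed pair differed from excluded replicate 1 by -1.23 in Csf1r and by 0.99 in Csf1, and its Il34 lay at least 2.36 log2 units lower, counted from its detection limits. Receptor and Csf1 thus ran in opposite directions in that letter. In letter G, the means of inflamed replicates 10 and 11 differed from desert replicate 2 by -0.01 in Csf1r and 0.25 in Csf1, and the inflamed libraries lay on both sides of the desert one. Il34 in G was 7.57 and 7.52 in the inflamed libraries against 6.58 in the desert one. In A and in G the excluded or desert library carries the code with 0 and the inflamed ones carry F2, so class and code cannot be told apart there.

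The receptor and Csf1 moved together over tumours. Over 14 code numbers, with libraries of the same number averaged, Pearson's r was 0.898 (permutation p = 4e-05, 0.00012 adjusted over 3 pairs) and Spearman's rho was 0.846 (permutation p = 0.00021, adjusted 0.00063). Without the 2 codes farthest from the median of Csf1r, r was 0.973 and rho 0.923 over 12. The relation was also seen inside groups. Over the 7 inflamed codes r was 0.899 and rho 0.857, and over the 7 excluded and desert codes 0.902 and 0.857. Over the 9 F2 codes r was 0.899, while rho was lower, at 0.683. With each letter's mean removed r was 0.856, and over the 6 letter means it was 0.964 (exact permutation p = 0.00139, the smallest that 6 letters allow).

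In these libraries the relation of Csf1 to Csf1r looked different at high and at low levels of Csf1r. The receptor left its widest gap between 7.98 and 8.99, with 8 codes above and 6 below. Above the gap r was 0.939 and rho 0.976. Below it r was -0.817 and rho -0.943. The lower 6 codes rest on a flat run of Csf1: it held 6.56 to 6.72 while Csf1r ran between 7.07 and 7.98, and the inflamed pair of letter A broke from it at 7.46 and 7.63. The gap was noticed in these values and the split follows them. A p from the same values would thus carry no weight, and r and rho of both sides are given as descriptions only.

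The relation of Il34 to its receptor did not pass the test in deep libraries. Over the 14 codes r of Csf1r with Il34 was 0.459 (permutation p = 0.0788, adjusted 0.118) and rho 0.292 (p = 0.312, adjusted 0.312). It was 0.253 without the 2 farthest codes and 0.166 with letter means removed. Over all 24 libraries, averaged by code, r was 0.491 and passed (permutation p, adjusted, of 0.0299), but of the 8 shallow libraries that this adds only 1 held Il34 and 3 held Csf1r above the limit. The ligands gave r = 0.166 with each other (permutation p = 0.652, adjusted 0.652) and rho 0.319 (p = 0.267, adjusted 0.312). Without the 2 codes farthest from the median of Csf1, both of letter H, r between the ligands was 0.0494.

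**Figure D3:**
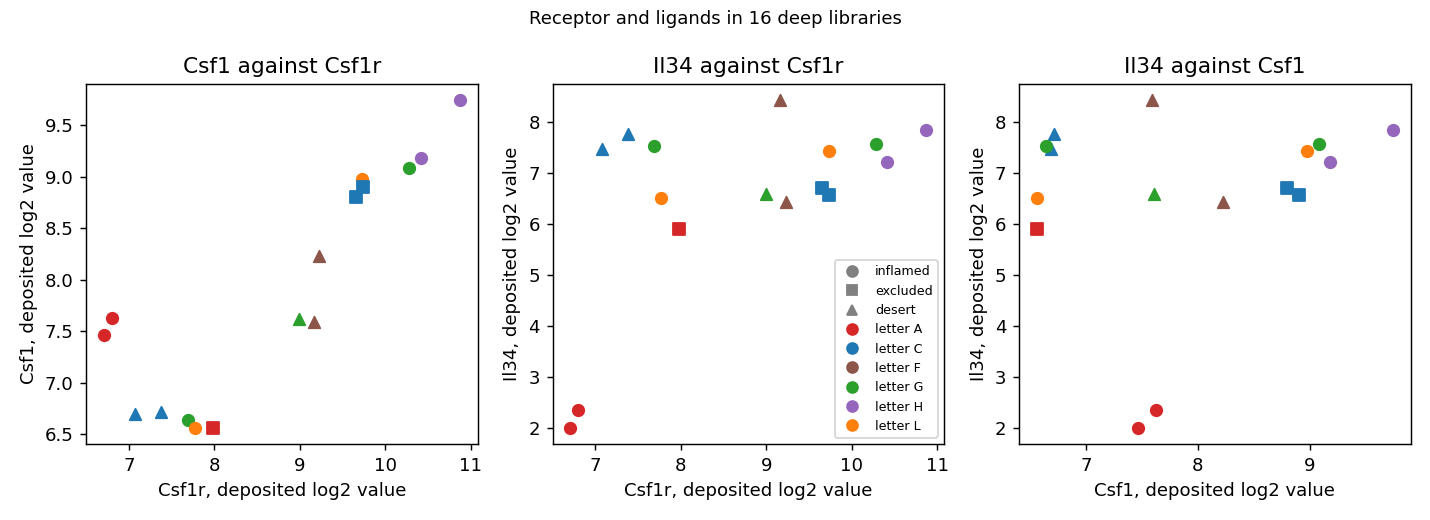
Deposited log2 values of the members set against each other in the 16 deep libraries: Csf1 over Csf1r, Il34 over Csf1r and Il34 over Csf1 (y over x axis). Colours are origin letters and shapes are classes. Csf1 climbs with Csf1r above a Csf1r level of 8.99 and is flat near 6.6 below 7.98 apart from the 2 libraries of letter A at 7.46 and 7.63, which are also the 2 lowest in Il34.

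Differences between members within a library are free of the library's scaling factor. Probes of different genes need not count with the same efficiency, so only changes of such a difference between libraries carry meaning. Csf1 minus Csf1r was 0.76 and 0.83 in inflamed replicates 3 and 4, against -1.58 to -0.38 in the other 14 deep libraries. Between classes it averaged -0.82 ± 0.73 in inflamed, -1.13 ± 0.41 in excluded and -1.0 ± 0.49 in desert tumours (SD, n = 7, 2 and 5 code numbers). Apart from that pair, the ranges of the 3 classes overlapped.

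Il34 minus Csf1r averaged -2.47 ± 1.42 in inflamed, -2.58 ± 0.69 in excluded and -1.04 ± 1.51 in desert tumours (SD, n = 7, 2 and 5). Desert replicates 5 and 6, both of letter C, held 0.39 and 0.37, the only positive values among the deep libraries. Desert replicates 1, 2 and 7 held -0.74, -2.42 and -2.81, so the desert class did not behave as a block. Il34 minus Csf1 averaged -1.64 ± 1.96 in inflamed, -1.44 ± 1.10 in excluded and -0.04 ± 1.30 in desert tumours (SD, n = 7, 2 and 5).

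None of these differences passed a 2-sided exact permutation test between classes, in 12 tests adjusted together that also cover 0 against F2. The smallest class p was 0.124, for Il34 minus Csf1r in inflamed against desert tumours, with a difference of -1.43 (adjusted p = 0.545). Il34 minus Csf1 gave a difference of -1.60 in the same comparison (exact permutation p = 0.136, adjusted 0.545). Without the inflamed pair these differences were -1.07 and -0.98. With 7 against 5 codes the smallest possible p was 0.00126, with 7 against 2 it was 0.0278 and with 2 against 5 it was 0.0476. Inflamed against excluded could thus pass the adjustment only together with several others, and excluded against desert only if all 12 tests passed. Their not passing was almost set by the design, and nothing is concluded from it.

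**Figure D4:**
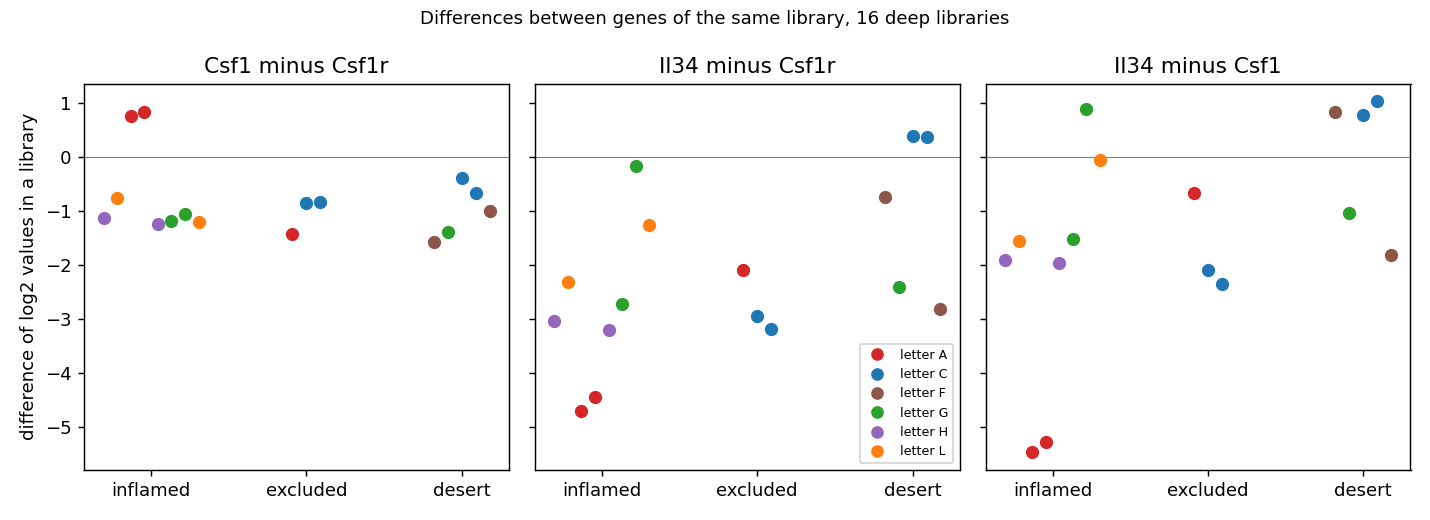
Within-library differences of log2 values (y axis) for Csf1 minus Csf1r, Il34 minus Csf1r and Il34 minus Csf1 in the 16 deep libraries by class (x axis), coloured by origin letter. The inflamed pair of letter A is highest in Csf1 minus Csf1r, at 0.76 and 0.83, and lowest in both differences of Il34. The desert libraries of letter C, at 0.39 and 0.37, are highest in Il34 minus Csf1r.

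Codes with 0 and codes with F2 did not differ in any member after adjustment, although 4.13% of all genes did (31 genes), 0.667% higher and 3.47% lower in codes with 0. The values of both series overlapped for each member, and for all but 0.667% of all genes. Csf1r averaged 9.35 ± 1.06 in codes with 0 and 8.43 ± 1.44 in F2 codes (SD, n = 5 and 11), a difference of 0.92 (interval -0.49 to 2.33, limma adjusted p = 0.503), and 0.55 without the inflamed pair. Csf1 averaged 8.10 ± 1.26 in codes with 0 and 7.81 ± 1.07 in F2 codes, a difference of 0.29 (interval -0.91 to 1.49, limma adjusted p = 0.805). Il34 averaged 7.23 ± 1.01 in codes with 0 and 6.19 ± 2.04 in F2 codes, a difference of 1.04 (interval -0.81 to 2.90, limma adjusted p = 0.572), which was 0.15 without the pair. The count of members with an unadjusted p under 0.05 was 0, beside 18.0% of all genes, and voom called 0. Codes with 0 had 982205 to 1110314 counts and deep F2 codes 107677 to 976271, so depth and code cannot be told apart.

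Letters A, F, G, H and L hold both kinds of code. Csf1r was higher in the code with 0 in A, H and L, by 1.23, 0.46 and 1.97, and about level in F and G, at -0.063 and 0.01. In L it held 9.73 in the code with 0 against 7.77 in the F2 code. Csf1 in L held 8.98 in the code with 0 against 6.56 in the F2 code, while in F it held 7.59 in the code with 0 against 8.23 in the F2 code. Its differences were 0.56 in H, -0.99 in A and -0.25 in G. Il34 was higher in the code with 0 in 4 of the 5 letters, in A by at least 2.36, in F by 2.01, in H by 0.63 and in L by 0.91. In G it held 6.58 in the code with 0 against 7.57 and 7.52 in the F2 codes. With the letter as a fixed term the fitted differences were 0.71 for Csf1r, 0.12 for Csf1 and 1.27 for Il34 (limma adjusted p = 0.487, 0.912 and 0.151).

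Among the 568 expressed genes, the spread of Csf1r over deep libraries was large. Its SD of 1.37 stood at percentile 86.6, that of Csf1 (1.10) at 72.2 and that of Il34 (1.82) at 97.4. Without inflamed replicates 3 and 4, the SD of Csf1r was 1.22 (percentile 88.7), that of Csf1 1.17 (85.2) and that of Il34 0.70 (48.6), so Il34 was then the least variable of the 3. From lowest to highest library, Csf1r spanned 18.0-fold and Csf1 9.09-fold. Il34 spanned at least 29.7-fold, counted from the mean limit of the pair, and 5.78-fold without the pair. Libraries of the same code number lay close: inflamed replicates 3 and 4 differed by 0.09 in Csf1r, 0.16 in Csf1 and 0.36 in Il34, and excluded replicates 2 and 3 by 0.08, 0.10 and 0.15.

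Likeness to Csf1r over the 14 codes was highest for Itga4, an integrin chain of leukocyte adhesion (r = 0.971), Vsir, which encodes the checkpoint protein VISTA (0.970), the endosomal RNA sensors Tlr8 (0.964) and Tlr7 (0.945), Cx3cr1, the fractalkine receptor of monocytes and macrophages (0.952), and Nfam1, an immune signalling receptor (0.947). The lowest r belonged to the glucose transporter Slc2a1 (-0.842) and the mitotic phosphatase Cdc25c (-0.839). The likeness of these 6 to Csf1r was about as high without the inflamed pair, with r of 0.932 to 0.966. Csf1 ranked 31 of 567 in likeness to Csf1r, and Il34 ranked 191.

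Csf1 most resembled Tbxas1, the thromboxane synthase (r = 0.942), Pirb, an inhibitory receptor of myeloid and B cells (0.935), and Tnfrsf11a, which encodes RANK, a receptor of osteoclast precursors (0.934). Cx3cr1 (0.916), the chemerin receptor Cmklr1 (0.911) and the macrophage lipid receptor Trem2 (0.909) followed. The lowest r were those of the stress-response gene Ier3 (-0.839) and the mitotic ubiquitin-conjugating enzyme Ube2c (-0.837). Csf1r ranked 9 in likeness to Csf1. The 6 genes nearest to Csf1r and the 6 nearest to Csf1 shared 1 gene, Cx3cr1, which is 1 in 6 of each list.

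Il34 most resembled the protein kinase C gene Prkca (r = 0.931), the lymphatic growth factor Vegfc (0.912), the PI3-kinase subunit Pik3r2 (0.90), the transcription factor Zeb1 of epithelial-mesenchymal transition (0.890), the tropomyosin gene Tpm1 (0.882) and the histone deacetylase Hdac3 (0.881). The lowest were Vhl, the tumour suppressor of oxygen sensing (-0.909), and Atm, a DNA damage kinase (-0.874). Much of this rested on inflamed replicates 3 and 4: without them the r were 0.741 for Prkca, 0.705 for Vegfc, 0.503 for Pik3r2, 0.683 for Zeb1, 0.753 for Tpm1 and 0.574 for Hdac3, and -0.622 for Vhl and -0.591 for Atm. The median r over the 567 other expressed genes was 0.235 for Csf1r, 0.0989 for Csf1 and 0.229 for Il34. All points share their libraries and scaling factors, and these r are descriptions without a test.

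**Figure D5:**
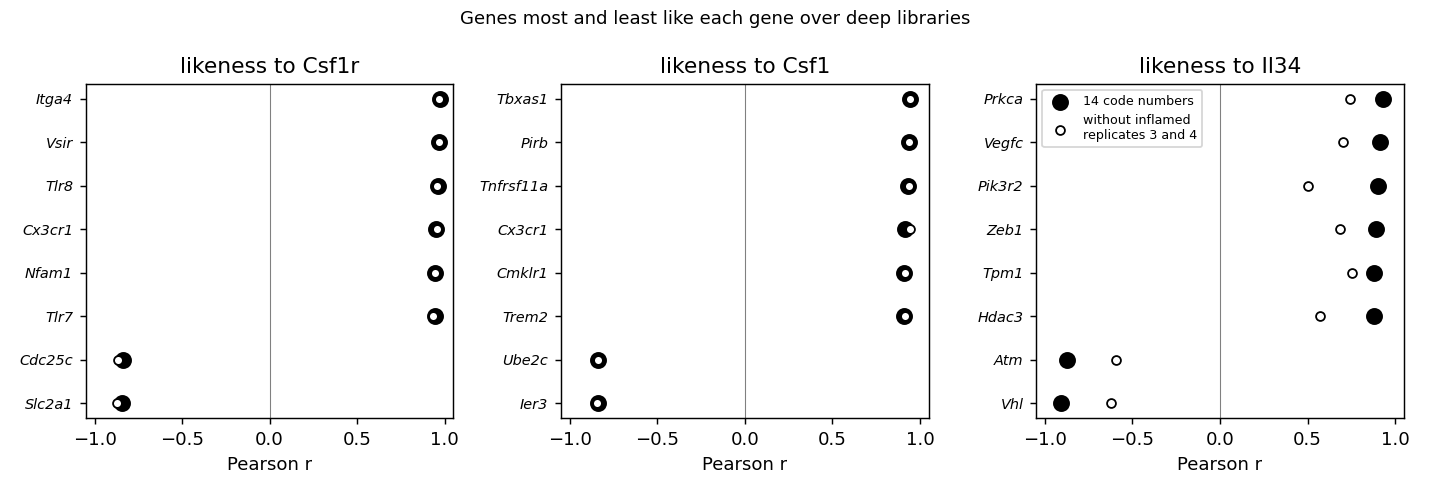
Pearson r (x axis) of the 6 genes most like and the 2 least like Csf1r, Csf1 and Il34 (y axis) over 14 code numbers of deep libraries. Black points use all 14 codes and small white points leave out inflamed replicates 3 and 4. The white points stay near the black ones for Csf1r and Csf1, and lie between 0.503 and 0.753 for the 6 genes most like Il34.

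Csf1r followed the summed level of mononuclear phagocyte genes closely. Of 29 genes listed, 19 were measured and 17 were expressed. Their sum on the log2 scale ran from 10.38 to 14.40 (median 12.82, or 13.89 without the pair) in inflamed, from 12.09 to 13.53 in excluded and from 11.83 to 13.24 in desert libraries. Csf1r minus this sum had an SD of 0.40 over the 16 libraries, against an SD of 1.37 for Csf1r alone. For Csf1 these SDs were 0.81 and 1.10, and for Il34 1.26 and 1.82. Without the pair they were 0.41 and 1.22 for Csf1r, 0.34 and 1.17 for Csf1, and 1.04 and 0.70 for Il34, whose difference from the sum thus varied more than its level. The pair of inflamed replicates 3 and 4 held the lowest sums, 10.38 and 10.46, against 11.71 to 14.40 in the other deep libraries. Csf1 minus the sum reached -2.83 in that pair and lay between -5.60 and -4.54 elsewhere. The list includes Cx3cr1, named above for its likeness, and the part of phagocyte content in the member values was not tested.

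No gene of the phagocyte list passed in inflamed against desert libraries, where 0.267% of all genes did. The inflamed pair with the lowest sums is part of this comparison. In the list 9 differences were positive and 10 negative, with a median of -0.01 beside 0.12 over all genes. The lipopolysaccharide co-receptor Cd14 differed by -0.76 (limma adjusted p = 0.593). Ccr2, the chemokine receptor of inflammatory monocytes, differed by 1.08 (limma adjusted p = 0.608), and Cx3cr1 by 0.79 (limma adjusted p = 0.683). The median of the list was -0.26 in inflamed against excluded, 0.26 in excluded against desert and 0.63 in codes with 0 against F2. Over all genes these medians were 0.00, 0.13 and 0.05. In codes with 0 against F2, 16 of 19 were positive and 0 passed, beside 4.13% of all genes.

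Of the genes that act downstream of the receptor or in its transcription, 0 passed in inflamed against desert libraries, beside 0.267% of all genes. Of 45 listed, 18 were measured, and 6 were positive and 12 negative in that comparison. Their median was -0.05, beside 0.12 over all genes. The cyclin gene Ccnd1 differed by -1.01 (limma adjusted p = 0.397), the survival gene Bcl2 by 0.66 (0.564) and the transcription factor gene Stat3 by -0.41 (0.608). Against excluded libraries the median was -0.28, for excluded against desert 0.15 and for 0 against F2 0.48. Over all genes these medians were 0.00, 0.13 and 0.05. In each of these comparisons 0 genes of the list passed, beside 0%, 0% and 4.13% of all genes.

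Other haematopoietic growth factors and their receptors were few on the panel. In inflamed against desert libraries 0 of them passed, beside 0.267% of all genes. Of 20 listed, 7 were measured and 5 expressed, with a median difference of 0.21 beside 0.12 over all genes. The genes of the related factors GM-CSF and G-CSF, Csf2 and Csf3, were above the limit in only 2 and 5 of 16 deep libraries, and differed by 1.31 and -1.06 (limma adjusted p = 0.578 and 0.622). Kit, the stem cell factor receptor of the same kinase family as Csf1r, was above it in 9 and differed by 0.60 (limma adjusted p = 0.682). The summed level of this list was lowest in inflamed replicates 3 and 4, at 7.46 and 7.39, against 7.78 to 10.52 in the other deep libraries.

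Among 10 measured receptor tyrosine kinases other than Csf1r, of 23 listed, 0 passed in any class comparison. Of all genes, 0.267% passed in inflamed against desert libraries and 0% in each of the others. The median of these kinases was 0.07 in inflamed against desert and -0.27 in inflamed against excluded libraries. It was 0.38 in excluded against desert and 0.79 in codes with 0 against F2. Over all genes those medians were 0.12, 0.00, 0.13 and 0.05. Pdgfrb, the receptor of pericytes and fibroblasts, differed by 1.26 in inflamed against desert libraries (limma adjusted p = 0.405). The hepatocyte growth factor receptor gene Met differed by -2.80 (limma adjusted p = 0.525), and Erbb2 by 0.91 (limma adjusted p = 0.441). Erbb2 was above the limit in 8 of the 16 libraries. The summed level of these kinases was lowest in inflamed replicates 3 and 4, at 9.33 and 9.42, against 10.04 to 14.62 in the other deep libraries.

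The shallow libraries could not measure most members. Csf1r exceeded the detection limit in 3 of 8, Csf1 in 4 and Il34 in 1, against 16, 16 and 14 of the 16 deep libraries. The deepest of them, inflamed replicate 12 of letter G with 46603 counts, held 9.31 for Csf1r, 9.45 for Csf1 and 6.32 for Il34, all above its limit of 5.53. Inflamed replicate 5, of letter A, held 8.41 for Csf1r and 7.12 for Csf1 above a limit of 6.61, while its Il34 of 6.54 lay below. Excluded replicate 4 held 6.65, 5.65 and 6.17 for Csf1r, Csf1 and Il34, under a limit of 6.75, and desert replicates 3 and 4 held all 3 members below theirs. With totals of 5327 and 5262, counts of desert replicates 3 and 4 showed no difference beyond sampling noise over 499 genes (chi-square test, p = 0.565). So few counts leave that test little power. An alternative counted these libraries as 1 sample. Chi-square per degree of freedom was 0.99 there, 2.19 for inflamed replicates 3 and 4 and 7.99 for excluded replicates 2 and 3. Against the deep desert replicate 6, of the same code number, desert replicates 3 and 4 gave 82.0 and 79.0.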

How the data were processed

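Trizol-extracted total RNA was counted by NanoString barcodes, per the labels. The authors deposited log2 values in 1 column for each sample, and all columns were used. The antilog of a value, divided by 1 factor per sample, was whole within 0.001 for 100% of values, which recovers counts. How that factor was set, whether background was subtracted and which genome build was used is not given in the sources used here. Of 784 rows, 34 hold no values, and 744 of 750 symbols match the RefSeq mouse annotation.

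The detection limit of a library is the mean plus 2 SD of log2 values of the 75 genes with the lowest mean counts. Deep libraries hold at least 100000 counts. Genes were compared with limma 3.58.1 (statmod 1.5.0, R 4.3.3), all 750 genes in each fit of 16 deep libraries, 2-sided. Exact and 100000-resample permutation tests were written in Python 3.11.15 with numpy 2.4.6. Rank correlations and the chi-square test used scipy 1.17.1. Scripts were tested on simulated data. Classes come from the labels, and replicate numbers follow sample order within a class.

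The members, lists, depth limit and tests were chosen with earlier results of these data known. Genes named are the members, for each of them the 6 most and 2 least correlated expressed genes, the 3 smallest p of each of 4 lists in inflamed against desert, and defining markers, of which Col1a1 was not analysed here and 1 other is not reported here. Alternatives varied libraries, depth limit, averaging, scaling, background, pseudocount, filter, variance model and origin letter.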

Additional observations from a re-analysis of the deposited data

Results flagged for a closer look

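By Dixon's test, 4 of 24 groups of code numbers held a value far from the rest of the group. Chance flags about 1 group in 20. Il34 in the code of inflamed replicates 3 and 4 averaged 2.17, the lowest of the inflamed codes and also of the F2 codes. Csf1 minus Csf1r in the same code averaged 0.79, the highest of the inflamed and of the F2 codes. All of these flags thus come from 1 tumour code.

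The difference of codes with 0 minus F2 codes had opposite signs in different origin letters, and whether the letters differ was not tested. For Csf1r it was 1.23 in A, 0.46 in H and 1.97 in L, against -0.063 in F, which is smaller than the 0.08 and 0.09 between libraries of the same code, and 0.01 in G, where the libraries overlap. For Csf1 it was 0.56 in H and 2.41 in L, against -0.99 in A and -0.64 in F, with -0.25 in G, where they overlap. For Il34 it was at least 2.36 in A, 2.01 in F, 0.63 in H and 0.91 in L, against -0.97 in G.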

How the results depend on the processing

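Depth limits what the 8 shallow libraries show of Il34, and 3 excluded libraries of 2 codes limit every comparison with that class. No paired analysis was possible because the labels give no replicate numbers that pair samples. With the origin letter as a fixed term instead, 0 against F2 called 95 genes and none of the members. No class or 0 against F2 difference of a member passed the threshold in any alternative. The r of Csf1r with Csf1 passed in all 7 alternatives, at 0.854 to 0.973, of which F2 codes only and leaving out letter A were added after the data were seen.

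Several small differences changed sign, and the cause was not tested. Inflamed minus excluded of Csf1r was 0.011 with at least 200000 counts, 0.23 averaged by code and 0.34 without the inflamed pair. For Il34 it was 0.34 averaged by code, 0.96 without the pair and 0.71 without letter A. For Csf1 it was -1.09 in F2 codes, -0.038 and -0.095 with the letter as a random block or fixed term, and -0.49 without letter A. Inflamed minus desert of Il34 was 0.017 without the pair and 0.017 without letter A, and excluded minus desert of Il34 was 0.44 with the letter as a fixed term. The 0 minus F2 difference of Csf1 was -0.021 after recentring on library medians. The letter test of Il34 gave an adjusted p of 0.00446 in F2 codes.

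Within libraries, Csf1 minus Csf1r for inflamed minus desert was -0.094 without the pair and -0.094 without letter A. Without letter A it was -0.25 for inflamed minus excluded and 0.16 for excluded minus desert. Il34 minus Csf1r for inflamed minus excluded was -0.31 over all 24 libraries and -0.26 with background subtracted, and for 0 minus F2 0.12 with codes kept separate and 0.074 with background subtracted. Il34 minus Csf1 for inflamed minus excluded was 0.42 without the pair and 1.20 without letter A, and for 0 minus F2 -0.25 and -0.30. The r of Csf1r with Il34 was 0.491 over all 24 libraries (permutation adjusted p = 0.0299), and that of Csf1 with Il34 was -0.000513 in F2 codes.

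With each library left out in turn, the Il34 letter test gave an adjusted p of 0.00195 to 0.706. Inflamed minus excluded ran from -0.69 to 0.48 for Csf1 and from -0.59 to 0.24 for Il34, and 0 minus F2 from -0.13 to 0.67 for Csf1. Within libraries, Csf1 minus Csf1r ran from -0.28 to 0.16 for excluded minus desert. Il34 minus Csf1r ran from -0.28 to 0.59 for inflamed minus excluded and from -0.57 to 0.058 for 0 minus F2. Il34 minus Csf1 ran from -0.62 to 0.58 and from -0.15 to 0.55 in the same comparisons.

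The number of genes called over all alternatives, single libraries left out included, ran from 0 to 8 for inflamed against desert (2 as reported). It ran from 0 to 62 for inflamed against excluded (0), from 0 to 95 for 0 against F2 (31) and from 0 to 149 for letters (3). Excluded against desert stayed at 0.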
